A study of Mus musculus with 62 samples.

Results

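The 10 lipogenic genes regarded as classic targets of ChREBP were examined across the muscles and muscle cells of the series. They are Acaca, Acacb, Acly, Fasn, Elovl5, Elovl6, Scd1, Scd2, Me1 and Thrsp, and they were taken by gene symbol, without regard to their values. All 10 were found in each of the 4 deposited tables, which hold 30250 entries (chow mice), 21959 (stress experiments), 21039 (AAV) and 17898 (C2C12). The questions were how they stood in each group and whether libraries of the same group varied with Mlxipl, the gene of ChREBP, or with Adipoq and Plin1, which mark fat in the sample.

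The data are mRNA levels in 62 libraries of 14 groups. Floxed mice without Cre (ChREBP-flox, F/F) were compared with muscle-specific knockout mice (ChREBP-flox;Mck-cre, ChMKO), in which the muscle creatine kinase promoter drives Cre and exon 8 of Mlxipl is removed from muscle fibres. Male mice of C57BL/6J background aged 8 to 10 weeks were used unless stated otherwise. Gastrocnemius (GC) and soleus (SOL) came from chow-fed F/F and ChMKO mice (n = 5 per group, with both muscles of a mouse under the same number). GC also came from F/F and ChMKO mice without further treatment (Norm), after 2 weeks in hypoxia equal to 5500 m of altitude (Hypo), or after 3 months on a high-fructose diet with 68% of calories from fructose (HFrD), with n = 4 per group. In a further experiment, GC of C57BL6/J mice received AAV9 with full-length mouse ChREBP under the CMV promoter (AAV-ChREBP) or a GFP control virus (AAV-CON) and was taken after 14 days (n = 5 per group). The CMV promoter is not restricted to muscle fibres. C2C12, a mouse myoblast line, was studied at day 7 of differentiation as a ChREBP-overexpressing line (Ch-OE) and a vector control line (CON), with n = 4 per group. Each C2C12 arm is 1 stable line, so differences between the arms cannot be told apart from differences between the lines.

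The members form the path from citrate to stored fat. ATP citrate lyase (Acly) makes cytosolic acetyl-CoA, the acetyl-CoA carboxylases Acaca and Acacb turn it into malonyl-CoA, and fatty acid synthase (Fasn) builds palmitate from it with NADPH that malic enzyme (Me1) supplies. Elovl6 and Elovl5 lengthen saturated and polyunsaturated fatty acids, the stearoyl-CoA desaturases Scd1 and Scd2 insert the double bond of oleate, and Thrsp (Spot 14) is a small nuclear and cytosolic protein that accompanies lipogenesis. In liver and fat ChREBP senses glucose metabolites and drives these genes through carbohydrate response elements, which are pairs of E-boxes, whereas muscle makes little fat and uses malonyl-CoA from Acacb at the mitochondrion to restrain fatty acid oxidation.

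RefSeq promoters (GRCm38.p6, 250 bases before to 50 from the first transcribed base) were matched for 8 members, with 9 promoters because Me1 has 2. The windows of Acaca and Acacb, and 1 of the 2 of Me1, lie inside the gene as the chow table places it, at a transcript start downstream of the gene's own start. Scd1 and Scd2 had no entry. Both strands were searched for CACGTG (the E-box), a loose carbohydrate response element (CANGNG and CNCNTG with 5 bases between them), CCAAT (the NF-Y box) and TCACNCCAC (a sterol response element). Of 32851 promoters of this length, 7.15%, 0.557%, 37.4% and 1.24% held these letters. Among the members the E-box letters were found in 1 promoter, that of Elovl5, where they began 161 bases before the first transcribed base. Neither the loose response element nor the sterol element letters were found in any of the 9. The letters CCAAT, in either orientation, were found in the promoters of Acacb, Acly, Fasn, Elovl5, Thrsp and in 1 of the 2 of Me1. The promoters of Elovl5 (chr9:77917115-77917414, plus strand), Acly (chr11:100527951-100528250, minus strand) and Fasn (chr11:120824498-120824797, minus strand) are shown because Elovl5 holds the E-box letters, Fasn carries 3 CCAAT matches, and Acly, like Elovl5, was called in SOL against GC in both genotypes. Acaca and Me1 were called in both as well and are not printed, as the Acaca window and the window at the start of Me1 hold none of these letters. Capitals mark the CACGTG and CCAAT matches, and ATTGG is CCAAT on the other strand. A match describes the letters of this window only.
Elovl5: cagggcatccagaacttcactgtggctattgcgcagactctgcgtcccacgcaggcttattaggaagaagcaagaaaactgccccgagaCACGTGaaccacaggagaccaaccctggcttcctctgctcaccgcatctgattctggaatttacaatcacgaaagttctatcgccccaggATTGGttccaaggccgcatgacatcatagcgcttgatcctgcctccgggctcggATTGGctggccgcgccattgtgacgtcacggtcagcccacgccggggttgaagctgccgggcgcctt
Acly: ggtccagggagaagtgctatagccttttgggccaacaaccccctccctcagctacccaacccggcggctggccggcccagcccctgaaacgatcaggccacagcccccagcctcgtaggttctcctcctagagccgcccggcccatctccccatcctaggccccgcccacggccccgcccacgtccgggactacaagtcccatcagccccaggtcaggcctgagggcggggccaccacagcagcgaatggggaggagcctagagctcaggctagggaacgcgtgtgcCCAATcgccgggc
Fasn: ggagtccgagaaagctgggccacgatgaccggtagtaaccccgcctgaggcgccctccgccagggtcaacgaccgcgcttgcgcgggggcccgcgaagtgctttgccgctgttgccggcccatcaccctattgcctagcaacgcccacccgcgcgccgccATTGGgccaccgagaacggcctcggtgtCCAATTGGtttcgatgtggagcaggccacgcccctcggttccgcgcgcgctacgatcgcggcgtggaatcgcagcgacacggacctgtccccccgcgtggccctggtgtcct

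Levels are FPKM (reads scaled to gene length and library total), and differences are log2 fold changes of FPKM + 1, a scale that understates the change of low genes. Each comparison was fitted with limma over the genes averaging 0.5 FPKM or more, and a gene was called at a Benjamini-Hochberg adjusted p under 0.05 over all genes tested. In the stress experiments, 14473169 to 23460511 reads per library were recovered from the values, with 99.9% of values within 0.01 of a whole read, and read totals of the other tables were not estimated here. Muscle fibre genes (Acta1, Ckm, Tnnt3, Myh4, Myh7 and Des) summed to between 27813 and 64489 FPKM in every muscle library with all 6 listed in the chow and stress tables and 5 in the AAV table, and to 999 to 1216 FPKM in C2C12. The 24 libraries of the stress experiments fell into 2 sets of 12 on the first principal component of 10719 genes, which held 61.6% of the variance. The first set (A) holds all 8 HFrD libraries, 2 Norm F/F and 2 Hypo F/F libraries, and the second (B) holds the other 12. The labels name no batch for these sets, so values within a set, or a fit with the set as a term, are given beside the results that cross them.

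Mlxipl followed the labels in every experiment. In chow mice it was 24.9 ± 4.10 FPKM (SD, n = 5) in GC of F/F and 15.7 ± 2.53 in ChMKO, with no overlap between the groups (log2 fold change -0.63, SE 0.128, adjusted p 0.391). In SOL it was 53.4 ± 7.51 and 38.4 ± 7.13, and the groups overlapped (-0.47, SE 0.136, adjusted p 0.382). In the stress experiments Mlxipl was called lower in ChMKO in Norm (8.63 and 3.30 FPKM, adjusted p 0.00655), Hypo (8.21 and 2.82, adjusted p 0.00297) and HFrD (9.26 and 4.40, adjusted p 0.00307). These values count reads over the whole gene, so transcripts without exon 8 and transcripts of cells without Cre activity are included. AAV-ChREBP raised it from 11.3 to 83.5 FPKM (log2 fold change 2.74, adjusted p 2.46e-06), and it was the only gene called of the 11058 tested there. In C2C12 it was at 0 in 3 of 4 CON libraries and at 13.4 FPKM on average in Ch-OE (adjusted p 8.03e-13).

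In muscle the members differed widely in level. Me1 had the highest mean of the members in every GC group, whereas Scd1 led in SOL of F/F and Acacb in SOL of ChMKO, and Elovl6 was lowest in every muscle group. Me1 ranged from 25.2 FPKM on average in SOL of F/F to 125.6 in AAV-ChREBP GC, and Acacb from 34.8 in Hypo F/F to 50.4 in SOL of F/F. Scd1 had group means from 14.9 (GC of F/F, chow) to 53.8 (SOL of F/F). The remaining members were lower, with the highest group mean at 3.61 FPKM for Acaca, 5.30 for Fasn, 6.96 for Acly, 8.59 for Elovl5, 14.9 for Thrsp and 16.2 for Scd2. Elovl6 stayed between 0.0501 and 0.60 FPKM in all 54 muscle libraries and was under the filter there, so 9 members were tested in muscle. Tables were normalized separately, so levels set across them are descriptions.

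The spread between libraries of a group ordered the members differently. The median coefficient of variation over the muscle groups was 45.6% for Scd1, 39.6% for Elovl6 and 30.6% for Fasn. It was 21.0% for Scd2, 19.7% for Thrsp, 17.9% for Acly, 17.4% for Elovl5 and 13.3% for Acaca, and it was lowest for Acacb (8.74%) and Me1 (7.99%). Me1 and Acacb thus varied least between mice, and Scd1 varied most, with single libraries from 5.23 to 98.9 FPKM.

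**Figure D1:**
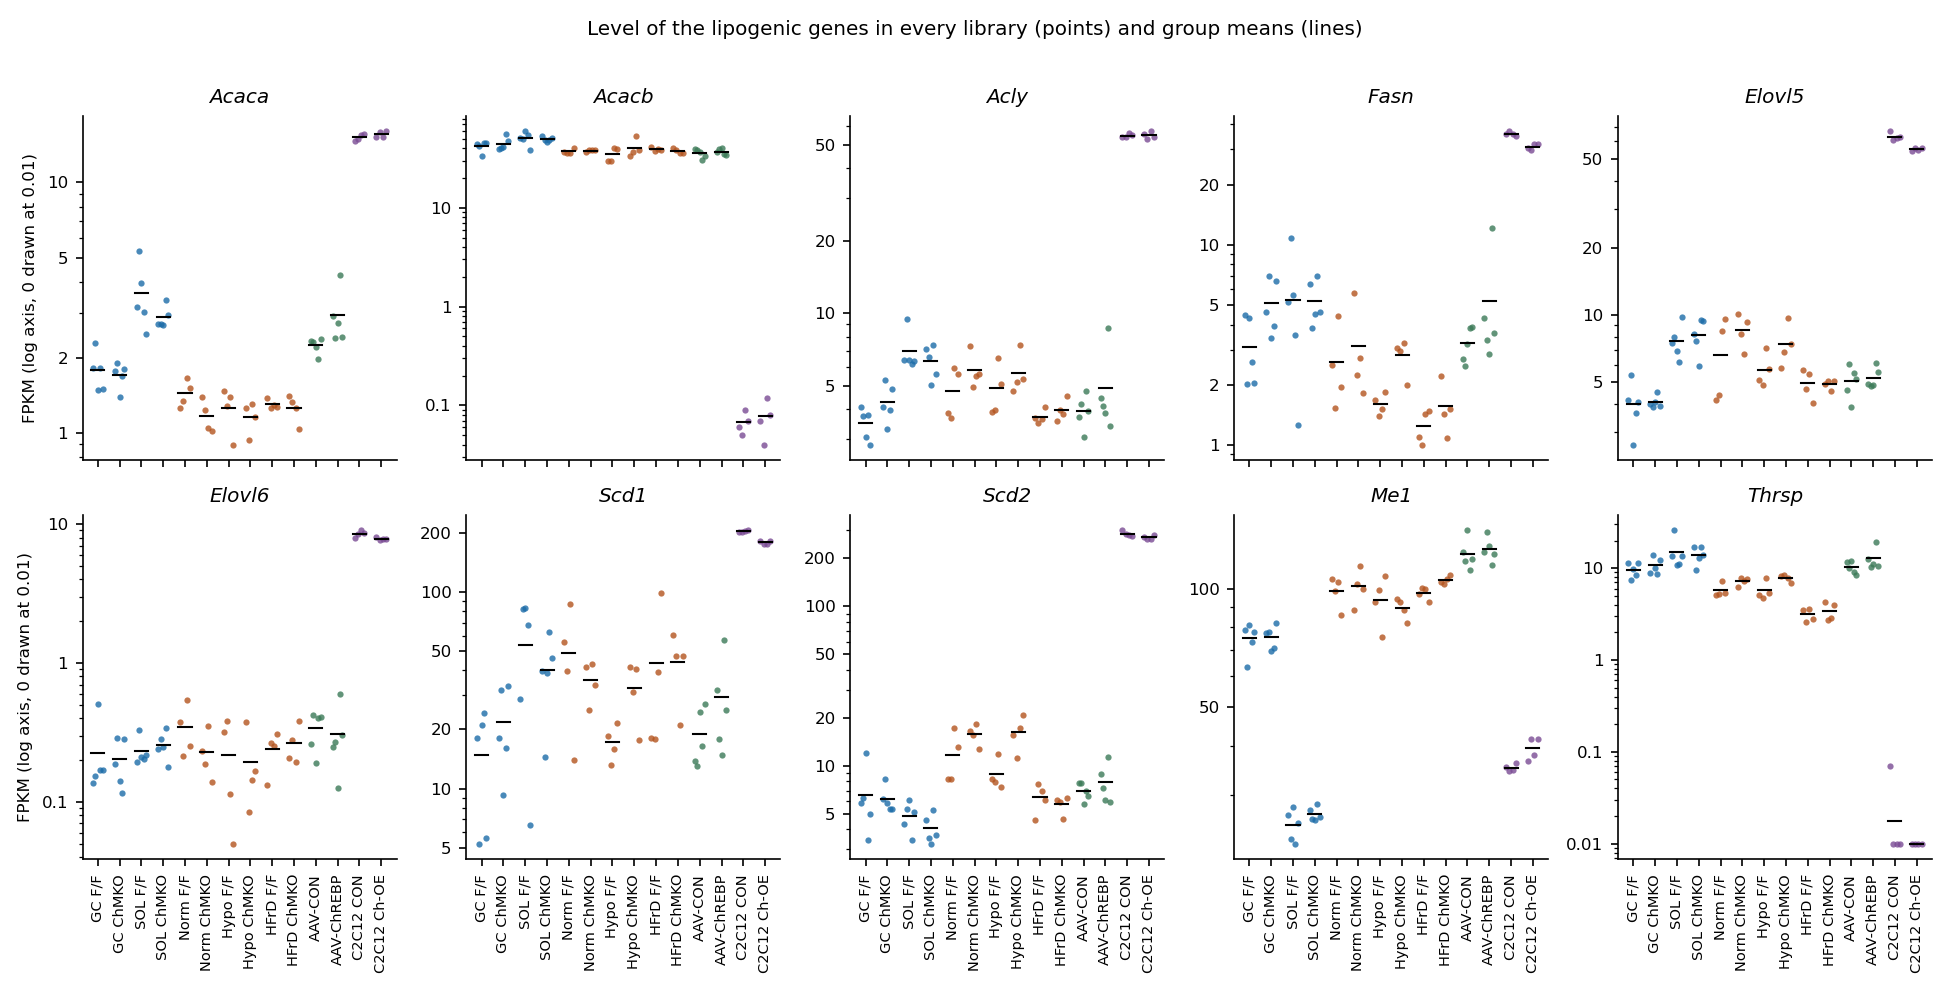
Level of the 10 members in every library, in FPKM on a log axis with 0 drawn at 0.01, by group, with points for libraries and lines for group means. Scd1 spans 5.23 to 98.9 FPKM in muscle while Acacb stays within 29.5 to 59.3, and C2C12 stands apart for Acacb and Thrsp (near 0) and for Scd1 and Scd2 (above 170 FPKM).

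C2C12 cells had another set of levels. Scd2 (285 FPKM in CON) and Scd1 (205) led, followed by Elovl5 (63.0), Acly (54.6), Fasn (35.9), Me1 (35.2), Acaca (15.2) and Elovl6 (8.53). Acacb was at 0.0675 FPKM and Thrsp at 0.0175 FPKM on average in CON, and both were under the filter, so 8 members were tested. Adipoq was at 0 in 7 of the 8 C2C12 libraries and Lep and Retn in all 8, whereas Pparg passed the filter. The 5 adipocyte genes of 9 that the table lists summed to 1.57 to 2.74 FPKM in these libraries.

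Variation of the members with Mlxipl and with fat genes was examined in 4 sets of libraries (10 chow GC, 10 chow SOL, 24 stress GC and 10 AAV GC), on deviations from group means of log2(FPKM + 1). Pearson's r and Spearman's rho were tested by permuting libraries within groups, and p was adjusted over all 108 relations of 9 members, 3 genes and 4 sets. In all, 5 relations were called, all above 0, of which 4 belonged to Scd1 with Adipoq or Plin1 and 1 to Thrsp with Plin1. With Mlxipl, 0 of 36 relations were called, and 5 had an unadjusted permutation p under 0.05.

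Scd1, the desaturase that makes oleate, followed the fat genes from library to library. In SOL of F/F mice Adipoq was 10.5, 27.6, 30.4, 27.6 and 3.44 FPKM in replicates 57, 58, 69, 70 and 71, and Scd1 was 28.7, 82.5, 83.5, 68.1 and 6.50 FPKM in the same libraries. In SOL of ChMKO mice Adipoq was 9.29, 5.20, 12.7, 20.6 and 14.4 FPKM in replicates 59, 60, 61, 72 and 74, and Scd1 was 39.6, 14.4, 38.8, 62.6 and 46.3 FPKM. In either genotype the library lowest in Adipoq was lowest in Scd1. Over these 10 SOL libraries r was 0.98 with Adipoq (rho 0.95, permutation p 0.000347, adjusted p 0.00937) and 0.98 with Plin1 (rho 0.92, permutation p 0.00118, adjusted p 0.0255). Without the 2 libraries farthest from the median of the fat gene r was 0.96 and 0.94. In bulk muscle, more fat cells and more RNA per fat cell cannot be told apart, and whether the fat cells or the fibres held the Scd1 mRNA was not tested.

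The 24 stress libraries gave the same relation for Scd1 in other mice. Here r was 0.88 with Adipoq (rho 0.74, permutation p 0.00018, adjusted p 0.0075) and 0.89 with Plin1 (rho 0.77, permutation p 0.00019, adjusted p 0.0075), and 0.81 and 0.86 without the 2 farthest libraries. Within set A r was 0.94 with Adipoq and 0.91 with Plin1, and within set B it was 0.90 and 0.95 (12 libraries each, permutation p 0.00738 to 0.0161, adjusted p 0.124 over the 54 relations within sets). With the means of group and set removed it was 0.91 and 0.93 (permutation, adjusted p 0.00778 for each). Among 9316 genes averaging 1 FPKM or more, the 3 whose deviations were most like those of Scd1 over the 24 libraries were Adipoq (r = 0.88), Lep (0.88) and Retn (0.87), all hormones of fat cells.

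In chow GC and AAV GC the relation of Scd1 with the fat genes was not called. In chow GC r was 0.85 with Adipoq (rho 0.93, permutation p 0.0101, adjusted p 0.0988) and 0.88 with Plin1 (adjusted p 0.0925), and it fell to 0.57 and 0.65 without F/F replicates 58 and 71, the 2 libraries lowest in fat genes. In AAV GC r was 0.55 with Adipoq (permutation, adjusted p 0.38) and 0.47 with Plin1 (adjusted p 0.477), and 0.11 and -0.18 without AAV-ChREBP replicates 1 and 7. The values in AAV GC therefore rested on those 2 libraries. Adipoq spanned 1.65 to 7.55 FPKM there, against 3.44 to 30.4 FPKM in chow SOL.

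**Figure D2:**
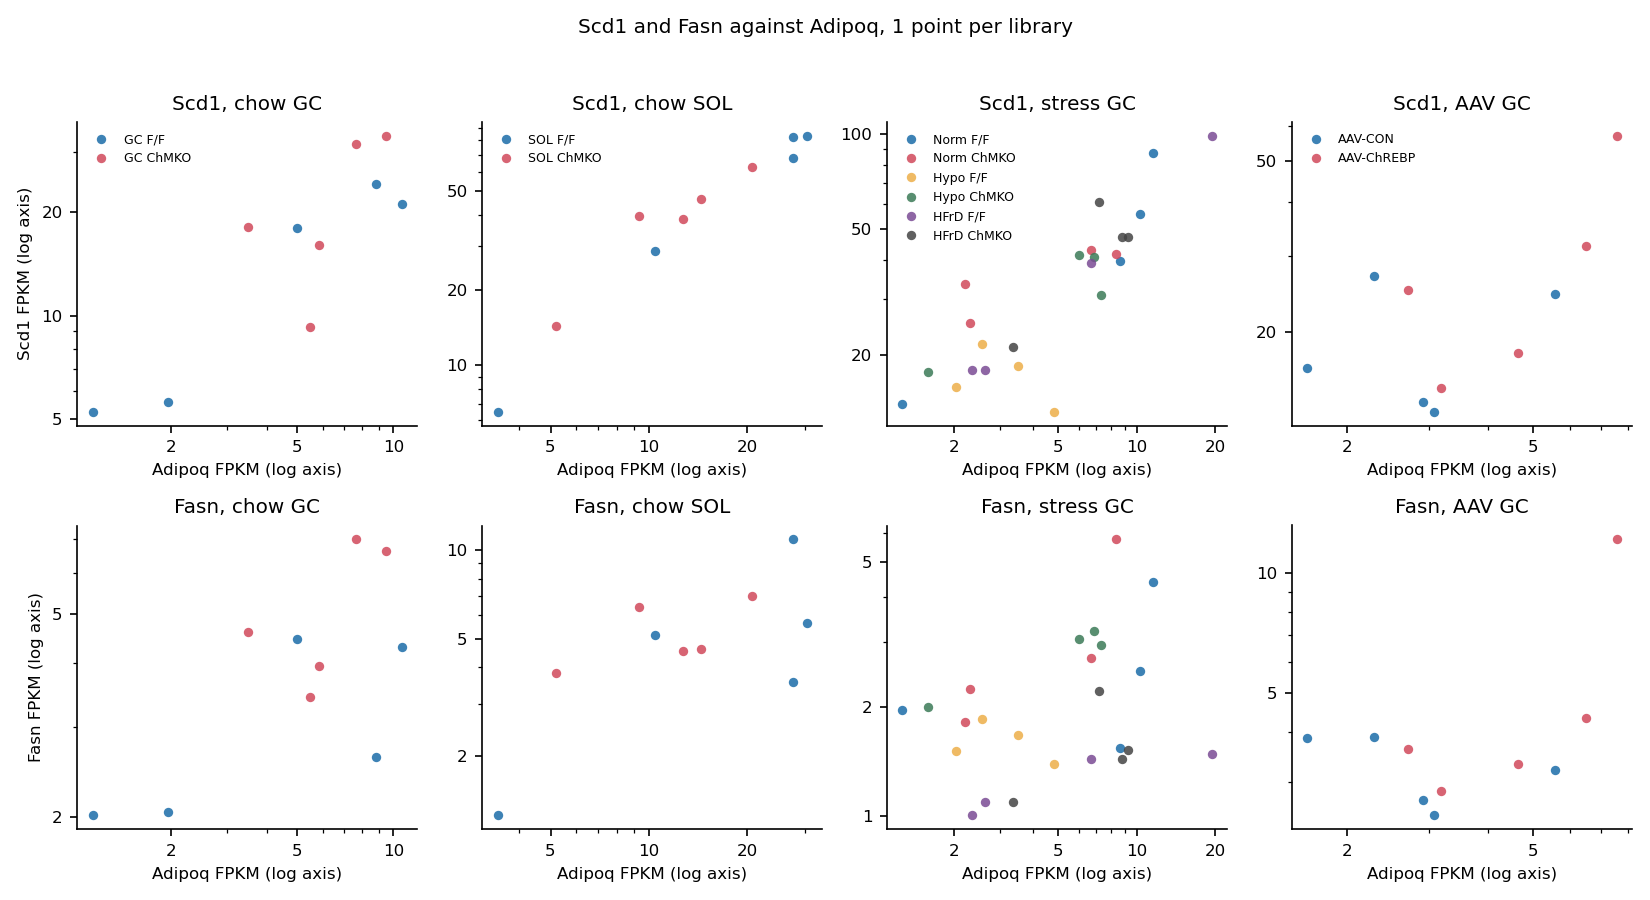
Scd1 (upper row) and Fasn (lower row) against Adipoq, each in FPKM on log axes, with 1 point per library, coloured by group, in the 4 sets of muscle libraries. Scd1 rises with Adipoq in chow SOL (r = 0.98) and in the stress libraries (r = 0.88), and the relations of Fasn there were not called (r = 0.73 and 0.58, the former 0.18 without 2 libraries).

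Fasn, the enzyme that builds palmitate, had no called relation with the fat genes among the 108. In the stress libraries its r was 0.58 with Adipoq (rho 0.60, permutation p 0.0105, adjusted p 0.0988) and 0.51 with Plin1 (permutation, adjusted p 0.243). With the means of group and set removed r was 0.73 (permutation, adjusted p 0.00778) and 0.69 (adjusted p 0.0167), an alternative chosen after seeing the data. In chow SOL r with Adipoq was 0.73 (permutation, adjusted p 0.288), and it was 0.18 without F/F replicate 71 and ChMKO replicate 60. In chow GC r was 0.66 (adjusted p 0.306), and 0.33 without the 2 farthest libraries. In AAV GC r was 0.43 (adjusted p 0.592), and -0.38 without AAV-ChREBP replicates 1 and 7, so the values in these 3 sets rested on the libraries left out. In the stress libraries r without the 2 farthest was 0.53. Within set B r with Adipoq was 0.86 (permutation p 0.0026, adjusted p 0.0703 over the relations within sets), and within set A it was 0.52 (adjusted p 0.391). Between members, Fasn and Scd1 had r = 0.83 in chow GC, 0.80 in chow SOL, 0.60 in the stress libraries and 0.87 in AAV GC. These are descriptions over 10, 10, 24 and 10 libraries that share depth and tissue makeup.

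Thrsp followed Plin1 in AAV GC alone among the 4 sets, and the difference between sets was not tested. There r was 0.89 (rho 0.89, permutation p 0.000208, adjusted p 0.0075), and it was 0.96 without AAV-ChREBP replicates 1 and 7. In chow GC, chow SOL and the stress libraries r of Thrsp with Plin1 was 0.25, 0.22 and -0.01. Elovl5, which lengthens polyunsaturated fatty acids, had r below 0 with Adipoq in all 4 sets (-0.80 in chow GC, -0.36 in chow SOL, -0.37 in the stress libraries and -0.31 in AAV GC), none of them called (permutation, lowest adjusted p 0.184). Without the 2 farthest libraries the value in chow SOL turned to 0.08, and the others were -0.57, -0.14 and -0.72. Acaca, Acacb, Acly, Scd2 and Me1 had no called relation among the 108.

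With Mlxipl the median r of the 9 members was -0.22 in chow GC, -0.03 in chow SOL, -0.01 in the stress libraries and -0.73 in AAV GC. Fasn and Scd1 had the lowest adjusted p in AAV GC (Fasn r = -0.94, rho -0.79, permutation p 0.00681, adjusted p 0.0925, and Scd1 r = -0.83, rho -0.75, permutation p 0.011, adjusted p 0.0988). AAV-ChREBP replicate 7 had the least Mlxipl of its group (52.9 FPKM against 79.9 to 101) and the most Fasn, Scd1 and Adipoq. Without it, an alternative chosen after seeing the data, r was -0.66 for Fasn (permutation, adjusted p 0.33 over 27 relations) and -0.62 for Scd1 (adjusted p 0.421). The median of the 9 members was then 0.08 in place of -0.73, with Acaca (0.22), Acly (0.05), Scd2 (0.23) and Thrsp (0.08) above 0 and Acacb at 0.80 (adjusted p 0.075), so the median in AAV GC rested on that library. Me1 had r = -0.81 with Mlxipl in chow GC (rho -0.65, permutation p 0.00757, adjusted p 0.0925, and -0.82 without F/F replicate 58 and ChMKO replicate 59). Within set A of the stress libraries its r was -0.91 (rho -0.93, permutation p 0.000434, adjusted p 0.0234), whereas it was 0.01 in set B and -0.14 over all 24 (permutation, adjusted p 0.804). Mlxipl varied little within groups, with an SD on the log2 scale of 0.110 in the stress libraries and 0.224 to 0.267 in the other sets, against 0.504 to 0.989 for Adipoq.

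**Figure D3:**
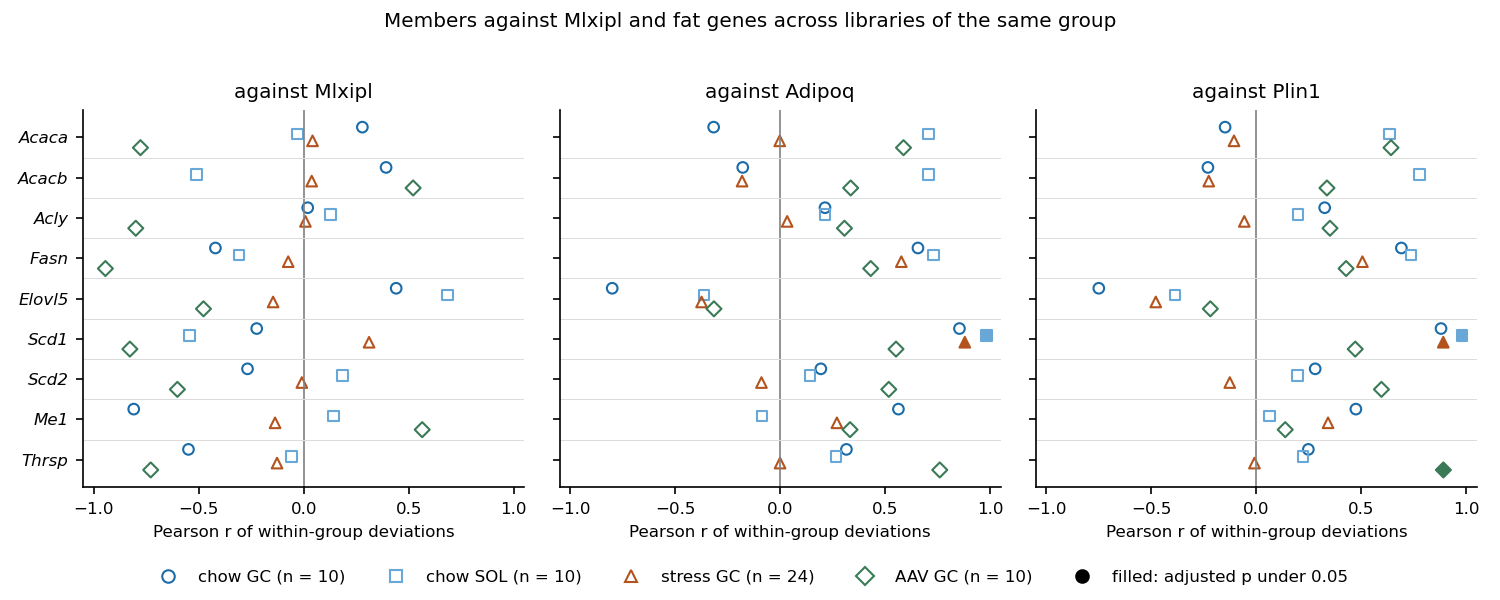
Pearson r of each member with Mlxipl, Adipoq and Plin1 over within-group deviations, in the 4 sets of muscle libraries, filled where the adjusted permutation p was under 0.05. The 5 filled points are those of Scd1 with the fat genes in chow SOL and the stress libraries and of Thrsp with Plin1 in AAV GC, and the panel of Mlxipl holds 0.

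SOL, a slow oxidative muscle, was compared with GC, a mostly fast glycolytic one. In F/F mice 4 of 9 members were called, where 50.2% of all genes tested were, and all 4 were without overlap, where 35.8% of all genes were, so the share of members was near that of all genes. Acaca, Acly and Elovl5 were higher in SOL and Me1 was lower. The median of all genes was 0.18 higher in SOL on the log2 scale, and rescaling of the libraries moved it by -0.17, against which the changes stand. All 4 calls held after rescaling (Acaca 0.52, Acly 0.60, Elovl5 0.60 and Me1 -1.78).

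Me1, which gives NADPH, had the largest of the called differences. In F/F mice it was 78.8, 63.4, 80.9, 73.1 and 77.8 FPKM in GC and 26.7, 23.3, 28.0, 22.6 and 25.5 in SOL (log2 fold change -1.53, SE 0.0898, adjusted p 8.96e-07). Every SOL library was under every GC library (fold 0.346). The ChMKO mice gave 75.2 ± 5.12 FPKM in GC and 26.9 ± 1.08 in SOL (-1.45, SE 0.0563, adjusted p 7.7e-09).

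Acly, which makes acetyl-CoA from citrate, was 4.09, 3.73, 3.07, 3.78 and 2.85 FPKM in GC and 6.39, 9.46, 6.42, 6.18 and 6.34 in SOL of F/F mice (log2 fold change 0.81, SE 0.122, adjusted p 0.000294). The SOL libraries were all higher, and replicate 58 stood above the other 4. In ChMKO mice Acly rose from 4.30 ± 0.783 to 6.34 ± 1.00 FPKM (0.47, SE 0.119, adjusted p 0.0055), with 1 SOL library under the highest GC library. Acaca rose from 1.78 ± 0.325 to 3.61 ± 1.11 FPKM in F/F (0.71, SE 0.151, adjusted p 0.00268) and from 1.71 ± 0.196 to 2.90 ± 0.299 in ChMKO (0.53, SE 0.0740, adjusted p 0.000102), without overlap in either genotype. Its mitochondrial counterpart Acacb was 41.9 ± 4.87 and 50.4 ± 7.66 FPKM in GC and SOL of F/F mice and was not called (0.25, SE 0.122, adjusted p 0.105).

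Elovl5 was 4.18, 5.41, 2.63, 3.63 and 4.08 FPKM in GC and 7.50, 7.95, 6.89, 6.19 and 9.83 in SOL of F/F mice (log2 fold change 0.81, SE 0.151, adjusted p 0.00118), without overlap. In ChMKO mice it rose from 4.08 ± 0.263 to 8.14 ± 1.45 FPKM (0.83, SE 0.105, adjusted p 4.52e-05). Scd2 was lower in SOL of ChMKO mice (6.20 ± 1.23 FPKM in GC and 4.06 ± 0.824 in SOL, -0.51, SE 0.129, adjusted p 0.00578). Of the 5 Schwann cell genes, 3 were called higher in that comparison (Pmp22 1.02, Mbp 0.80 and Prx 0.42), where 57.7% of all genes were called either way. The 5 summed to 9.90 to 18.8 FPKM in GC and 22.2 to 33.8 in SOL. In F/F mice Scd2 was not called (-0.28, SE 0.245, adjusted p 0.358). GC of F/F replicate 69 held the most Scd2 there (12.1 FPKM against 3.41 to 6.32), and its 5 Schwann cell genes summed to 159 FPKM, where the median of the group was 23.7 and the lowest 11.2. The part of nerve in the Scd2 values of either genotype was not tested.

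Scd1 had the largest fitted difference between the muscles of F/F mice and was not called. GC of F/F mice held 18.1, 5.23, 21.1, 24.3 and 5.60 FPKM and SOL held 28.7, 82.5, 83.5, 68.1 and 6.50 (log2 fold change 1.59, SE 0.679, 95% interval 0.10 to 3.08, adjusted p 0.0717). In 4 of 5 SOL libraries it was above every GC library, and replicate 71, the SOL library lowest in Adipoq, was not. Without that library the fold change was 2.20 (adjusted p 0.00424), and with the mouse as a block it was called (adjusted p 0.0218). With the level of Adipoq and Plin1 as a covariate it was -0.10 (adjusted p 0.695). In ChMKO mice the fold change was 0.86 (SE 0.400, adjusted p 0.0845), 1.19 without SOL replicate 60 (adjusted p 0.0108) and 0.13 with the covariate (adjusted p 0.712).

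Genes of other cell types moved with the muscle. The 9 adipocyte genes, all listed, summed to 144 to 242 FPKM in GC and 378 to 638 in SOL of F/F mice, and to 136 to 217 and 287 to 548 in ChMKO mice. Adipoq was called higher in SOL in F/F (log2 fold change 1.65, adjusted p 0.0441) and ChMKO mice (0.80, adjusted p 0.0443). With the fat genes as a covariate Acaca, Acly, Elovl5 and Me1 kept their direction and their call in both genotypes. Their differences were 0.57, 0.76, 1.10 and -1.56 in F/F mice. Of the endothelial genes (Pecam1, Cdh5, Kdr and Tek), all 4 were called higher in SOL in both genotypes, and they summed to 29.3 to 65.2 FPKM in GC and 95.5 to 153 in SOL of F/F mice and to 35.5 to 52.6 and 76.5 to 98.3 in ChMKO mice. The brown adipocyte gene Cidea was called higher as well (0.0499 to 0.404 FPKM in GC and 2.24 to 6.43 in SOL of F/F mice). The part of these cells in the members' differences was not tested.

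In ChMKO mice 5 of 9 members were called between the muscles, against 57.7% of all genes, and 4 were without overlap, against 42.8%. No member had a called interaction of genotype with muscle (lowest adjusted p 0.812, that of Acly), against 0.00755% of all genes, and 0 had an unadjusted p under 0.05, against 5.96%. Of 33 other genes of the pathway, 13 of 29 tested were called higher and 2 lower in SOL of F/F mice. The share called over all genes there was 50.2%, near that of the pathway. The largest differences were those of Dgat2 (log2 fold change 2.75) and Agpat2 (1.64), which assemble triglyceride, and Acss2 (1.13), which makes acetyl-CoA from acetate. In ChMKO mice 11 of 28 were called higher and 3 lower, against 57.7% of all genes called either way. The largest differences were those of Dgat2 (2.98), Srebf1 (-1.35), the gene of the insulin-responsive regulator SREBP-1, and Agpat2 (1.32).

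**Figure D4:**
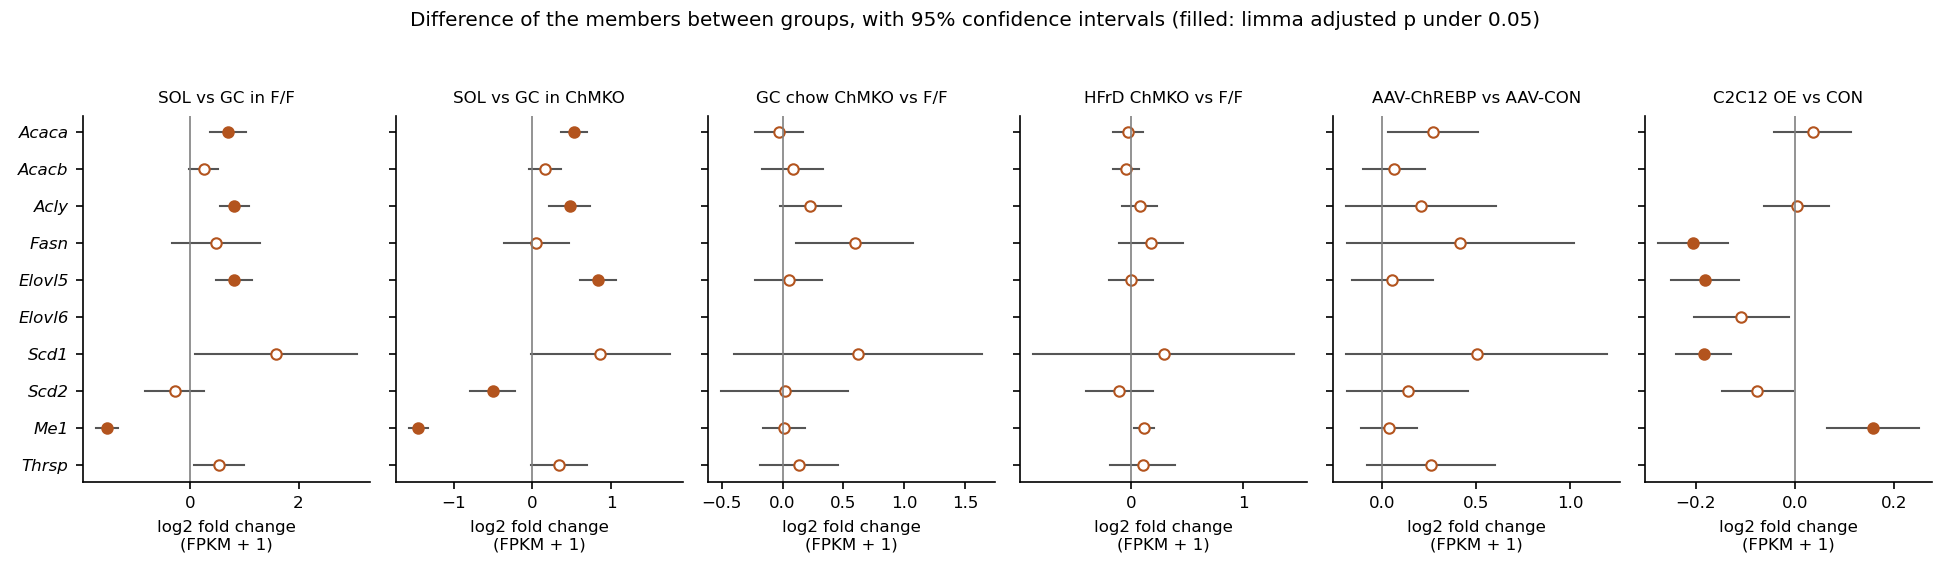
Log2 fold change of FPKM + 1 of each tested member in 6 of the comparisons, with 95% confidence intervals from limma, filled where the adjusted p was under 0.05. Filled points stand in the panels of SOL against GC (4 in F/F, 5 in ChMKO) and C2C12 (4), and the panels of ChMKO against F/F in chow GC and on HFrD and of AAV hold 0.

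The loss of ChREBP in muscle gave no called member in any of 5 comparisons of ChMKO with F/F. In chow GC 0 of 9 were called by limma, against 0.0391% of all genes, and 1 had an unadjusted p under 0.05, as 4.63% of all genes did. That member was Fasn, at 4.46, 2.01, 4.29, 2.61 and 2.05 FPKM in F/F and 4.60, 6.99, 3.43, 3.95 and 6.63 in ChMKO. In ChMKO 3 libraries lay above all F/F libraries (log2 fold change 0.59, SE 0.219, 95% interval 0.11 to 1.07, p 0.02, adjusted p 1 from limma). Acly was 3.50 ± 0.523 and 4.30 ± 0.783 FPKM (0.23, SE 0.115) and Scd1 was 14.9 ± 8.89 and 21.7 ± 10.5 FPKM (0.62, SE 0.464). The fold change of Scd1 was 0.34 without F/F replicate 58 and 0.36 without F/F replicate 71, the libraries lowest in it. In chow SOL 0 of 9 were called, against 0.0298% of all genes, and 0 had an unadjusted p under 0.05, against 9.77%. Fold changes there ran from -0.21 (Acaca) to 0.17 (Fasn), with an interval of -0.06 to 0.25 on the log2 scale for Me1 and -1.51 to 1.30 for Scd1.

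In Norm GC 0 of 9 were called by limma, against 0.00922% of all genes, and 1, Thrsp, had an unadjusted p under 0.05, as 11.1% of all genes did. Thrsp was 5.13, 5.17, 7.23 and 5.40 FPKM in F/F and 6.25, 7.85, 7.29 and 7.64 in ChMKO (log2 fold change 0.30, SE 0.117, p 0.0301, adjusted p 0.419). All ChMKO libraries of Norm and Hypo lie in set B, while 2 of 4 F/F libraries of each lie in set A. With the set as a term the fold change was 0.18 (adjusted p 0.978). Liver genes (Alb and Apoa1) summed to 18.3 to 223 FPKM in Norm ChMKO, and their part was not tested.

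Among the comparisons of ChMKO with F/F, hypoxic GC held the most members with small p, and 0 of 9 were called, against 0.00941% of all genes. Of these, 4 had an unadjusted p under 0.05, where 5.26% of all genes did, and all 4 had a higher mean in ChMKO. Fasn was 1.67, 1.39, 1.51 and 1.85 FPKM in F/F and 3.07, 2.96, 3.23 and 1.99 in ChMKO, without overlap, where 2.03% of all genes had none (log2 fold change 0.54, SE 0.130, p 0.00204, adjusted p 0.532 from limma). Scd1 was 18.4, 13.2, 15.8 and 21.7 FPKM in F/F and 41.4, 31.0, 40.7 and 17.7 in ChMKO (0.83, SE 0.259, p 0.0095, adjusted p 0.532), where 3 ChMKO libraries were above all F/F libraries. Scd2 was 8.33, 7.88, 11.9 and 7.37 FPKM in F/F and 15.6, 11.1, 17.4 and 20.9 in ChMKO (0.79, SE 0.198, p 0.00259, adjusted p 0.532), and 3 ChMKO libraries were again above. Thrsp had a fold change of 0.40 (SE 0.146, p 0.0219, adjusted p 0.532).

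With the library set as a term, these 4 differences were 0.50 (Fasn), 0.72 (Scd1), 0.70 (Scd2) and 0.22 (Thrsp), each with an adjusted p of 1. With the fat genes as a covariate they were 0.44, 0.62, 0.99 and 0.41 (adjusted p 0.206 to 0.234). The adipocyte genes summed to 66.2 to 75.6 FPKM in Hypo F/F and 67.5 to 120 in Hypo ChMKO, and the Schwann cell genes to 27.6 to 39.1 and 25.4 to 115. On the high-fructose diet 0 of 9 were called, against 0.019% of all genes, and 1, Me1, had an unadjusted p under 0.05, as 7.37% of all genes did. Me1 was 96.9, 101, 99.5 and 92.4 FPKM in F/F and 104, 103, 106 and 108 in ChMKO, without overlap, where 4.47% of all genes had none (0.11, SE 0.0402, p 0.02, adjusted p 0.642). This comparison lies within set A.

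Hypoxia gave no called member in either genotype. In F/F 0 of 9 were called and 0% of all genes, and 1, Scd1, had an unadjusted p under 0.05, as 3.83% of all genes did. Scd1 was 56.1, 39.6, 87.4 and 13.98 FPKM in Norm and 18.4, 13.2, 15.8 and 21.7 in Hypo (log2 fold change -1.22, SE 0.474, p 0.0312, adjusted p 1 from limma), which passes the criterion of the study, a change of 1 or more on the log2 scale, either way, at an unadjusted p under 0.05, as 0.168% of all genes did. The groups overlapped, as 1 Norm library was at the level of the Hypo libraries. That library also held the least Adipoq of its group, 1.27 FPKM against 8.62 to 11.6. With the fat genes as a covariate the difference was -0.48 (adjusted p 0.664), and leaving out single libraries gave -1.71 to -0.86. With the set as a term it was -1.22 (adjusted p 0.304). In set A the Norm libraries held 56.1 and 39.6 FPKM and the Hypo libraries 18.4 and 13.2, whereas in set B they held 87.4 and 13.98 against 15.8 and 21.7. With 2 libraries per group in each set, the difference within a set was not tested. In ChMKO 0 of 9 were called, against 0.89% of all genes, and 0 had an unadjusted p under 0.05, against 15.1%, a comparison within set B. The interaction of genotype with hypoxia was called for no member (Scd1 1.04, SE 0.583, p 0.0933, adjusted p 1) and 0% of all genes, and 0 members had an unadjusted p under 0.05, against 1.23% of all genes. With the set as a term 0 members were called as well.

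On the high-fructose diet Acly, Elovl5, Scd2 and Thrsp were called lower in ChMKO mice, and no member was called in F/F mice. Both diet comparisons share their Norm libraries with the hypoxia comparisons, and the diet groups lie wholly in set A. Hypoxia lasted 2 weeks and the diet 3 months, and ages at collection are not given per group. A difference in age or in the time of the experiment therefore cannot be told apart from diet. In F/F mice 0 of 9 members and 0% of all genes were called, and 3 members had an unadjusted p under 0.05, as 23.6% of all genes did. Those 3 were without overlap, where 16.2% of all genes had none. Thrsp was 5.13, 5.17, 7.23 and 5.40 FPKM in Norm and 3.51, 2.61, 3.59 and 2.81 in HFrD (log2 fold change -0.70, SE 0.125, p 0.000355, adjusted p 0.145 from limma). Scd2 was 8.31, 8.27, 17.4 and 13.1 FPKM in Norm and 4.61, 7.68, 6.97 and 6.09 in HFrD (-0.76, SE 0.237, adjusted p 0.158). Fasn was 2.50, 1.54, 4.41 and 1.95 FPKM in Norm and 1.09, 1.00, 1.44 and 1.48 in HFrD (-0.62, SE 0.212, adjusted p 0.172).

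The Norm F/F libraries themselves differed by set. Elovl5 was 4.15 and 4.37 FPKM in the 2 of set A and 8.52 and 9.60 in the 2 of set B. Scd2 was 8.31 and 8.27 against 17.4 and 13.1, and Acly 3.85 and 3.68 against 5.95 and 5.57. With the set as a term the fold change was -0.58 for Thrsp (adjusted p 0.18), -0.36 for Scd2 (adjusted p 0.383) and -0.41 for Fasn (adjusted p 0.451). Inside set A every HFrD library of either genotype was lower in Thrsp (2.61 to 4.30 FPKM) than the 4 F/F libraries of Norm and Hypo (4.79 to 5.17). Scd2 was lower in the same way (4.61 to 7.68 against 7.88 to 8.33). Elovl5 (4.03 to 5.70 against 4.15 to 5.14) and Acly (3.49 to 4.55 against 3.68 to 3.96) overlapped there. The median of all genes was -0.10 in this comparison, and rescaling moved it by 0.10.

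In ChMKO mice 4 of 9 members were called lower on the diet, where 44.6% of all genes were called lower and 64% in either direction, and the same 4 were without overlap, where 57.2% of all genes had none. The share of members was near or below that of all genes. Genes of other cell types were lower too. All 4 endothelial genes were called lower (sums of 77.1 to 89.2 FPKM in Norm and 41.3 to 51.0 in HFrD), as were 3 of 4 macrophage genes (7.89 to 18.0 and 7.22 to 11.5) and both liver genes (18.3 to 223 and 0.0869 to 0.217). The muscle fibre genes summed to 45222 to 53445 FPKM and 39291 to 40525, and the part of any of these in the members' differences was not tested. Scd2 fell from 16.4, 15.5, 18.2 and 12.7 FPKM in Norm to 6.11, 5.94, 4.65 and 6.29 in HFrD (log2 fold change -1.31, SE 0.115, adjusted p 1.54e-05). Thrsp fell from 6.25, 7.85, 7.29 and 7.64 FPKM to 4.30, 2.74, 2.84 and 3.95 (-0.90, SE 0.122, adjusted p 0.000205). Elovl5 fell from 8.59 ± 1.47 to 4.91 ± 0.233 FPKM (-0.69, SE 0.104, adjusted p 0.000393) and Acly from 5.83 ± 1.02 to 3.97 ± 0.417 (-0.45, SE 0.105, adjusted p 0.00452).

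All Norm ChMKO libraries lie in set B and all HFrD ChMKO libraries in set A, so diet and library set cannot be told apart in ChMKO mice. Acly, Elovl5 and Thrsp did not overlap between the sets over the 24 libraries (Elovl5 4.03 to 5.70 FPKM in set A and 5.71 to 10.1 in set B). The sets were cut on the first principal component of these same values, so some genes separate between them by construction. The share of all genes without overlap between the sets was not computed. Fasn was 3.13 ± 1.79 and 1.56 ± 0.467 FPKM (-0.62, SE 0.251, adjusted p 0.0539), and it was called with a pseudocount of 0.1 (-0.86, adjusted p 0.0423), with the fat genes as a covariate (-0.78, adjusted p 0.00601) and with voom on recovered reads (-0.95, adjusted p 0.0333). Leaving out single libraries gave -0.78 to -0.35 (adjusted p 0.0233 to 0.131), the smallest without the Norm library highest in Fasn (5.76 FPKM). Scd1, Me1, Acacb and Acaca were not called (0.23, 0.06, -0.01 and 0.05). Mlxipl itself was higher on the diet here (log2 fold change 0.33, adjusted p 0.000386). Rescaling moved the median of all genes, -0.17, by 0.15, and with it Acacb (0.18) and Me1 (0.25) were called higher as well. The interaction of genotype with diet was called for no member (Scd2 -0.55, SE 0.281, p 0.0692, adjusted p 0.451) and 0% of all genes, and 0 members had an unadjusted p under 0.05, against 10.3% of all genes, and 0 were called with the set as a term. Of the other genes of the pathway, 21 of 29 were called lower in ChMKO mice and 0 higher, where 44.6% of all genes were called lower and 64% either way. The largest falls were those of Fads2 (-1.23), Srebf1 (-1.16) and Fads1 (-0.93). In F/F mice none of 28 was called.

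**Figure D5:**
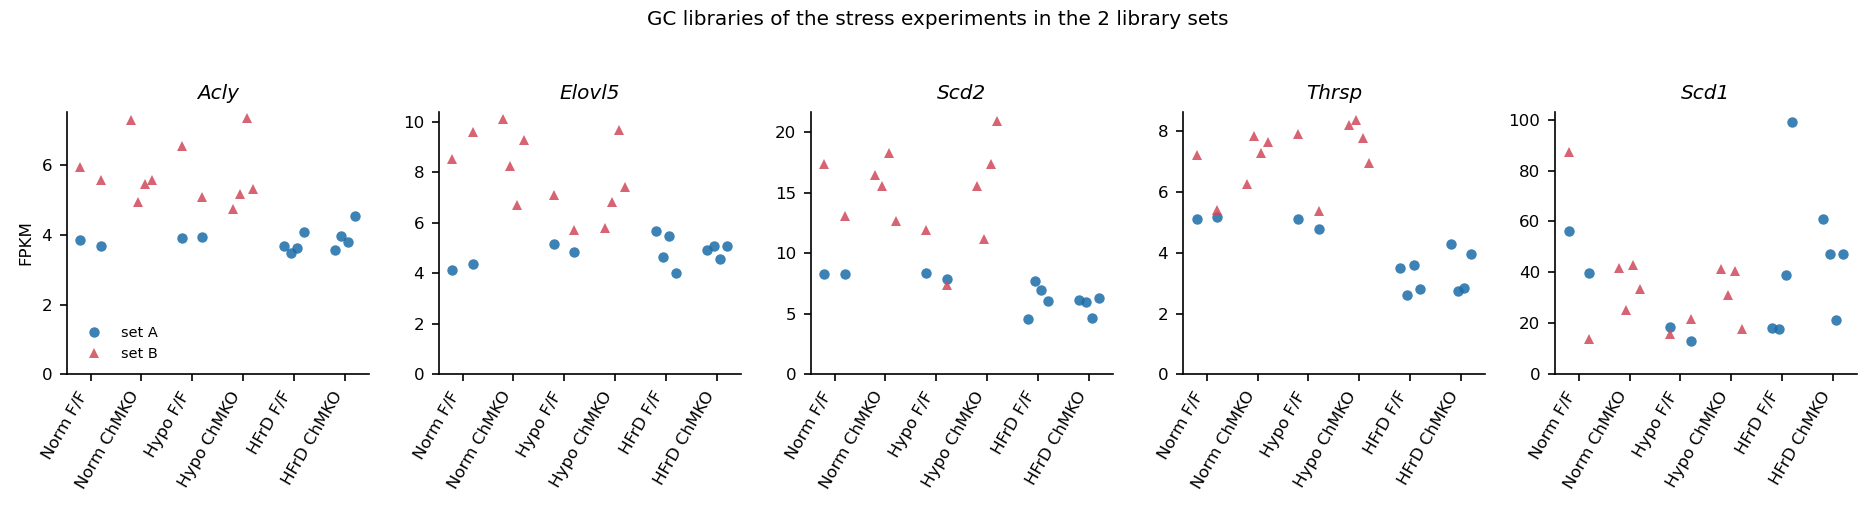
FPKM of 5 members in the 6 groups of the stress experiments, with libraries marked by set (A or B) and a linear axis from 0. Norm F/F and Hypo F/F hold libraries of both sets, and the libraries of set A lie lower for Elovl5 (4.03 to 5.70 FPKM against 5.71 to 10.1), as the HFrD groups do. The sets were cut from these same values.

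Overexpression of ChREBP in GC by AAV gave no called member. All 9 tested members had a higher mean in AAV-ChREBP, with fold changes from 0.04 (Me1) to 0.50 (Scd1) on the log2 scale, and 0 were called by limma, against 0.00904% of all genes. Adipoq averaged 3.1 FPKM in AAV-CON and 4.9 in AAV-ChREBP. The 9 adipocyte genes summed to 114 to 154 and 128 to 198 FPKM, and their part in the members' differences was not tested. Acaca alone had an unadjusted p under 0.05, as 2.91% of all genes did. Acaca was 2.33, 2.31, 2.21, 1.97 and 2.37 FPKM in AAV-CON and 2.93, 2.39, 2.75, 4.27 and 2.42 in AAV-ChREBP (0.27, SE 0.110, p 0.0309, adjusted p 1), without overlap, where 0.579% of all genes had none. Replicate 7 was far above the other 4, and without it the difference was 0.16 (adjusted p 1).

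The same library moved the differences of Fasn and Scd1. Fasn was 2.70, 2.47, 3.21, 3.87 and 3.89 FPKM in AAV-CON and 4.33, 3.33, 2.84, 12.2 and 3.64 in AAV-ChREBP (0.42, SE 0.277, 95% interval -0.19 to 1.02), and the difference was 0.11 without replicate 7. Scd1 was 13.7, 13.1, 24.5, 16.5 and 26.9 FPKM and 31.6, 17.9, 14.8, 57.1 and 25.0 FPKM (0.50, SE 0.318, 95% interval -0.19 to 1.19), and 0.23 without it. Replicate 7 also held the most Acly (8.70 FPKM), Thrsp (19.5), Scd2 (11.4) and Adipoq (7.55) of the 10 libraries, and its 4 listed Schwann cell genes summed to 81.0 FPKM. Acacb, Elovl5 and Me1 had the narrowest intervals (-0.10 to 0.23, -0.16 to 0.27 and -0.11 to 0.19). None of 28 other pathway genes was called.

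In C2C12, the Ch-OE line differed from the CON line by small steps in opposite directions. Of 8 tested, 4 were called, where 30.5% of all genes were, and the same 4 were without overlap, where 31.3% of all genes had none. Fasn was 35.9, 37.0, 36.0 and 35.0 FPKM in CON and 30.5, 29.8, 32.03 and 31.8 in Ch-OE (log2 fold change -0.21, SE 0.0322, adjusted p 0.000677). Elovl5 was 66.6, 60.7, 62.2 and 62.6 FPKM in CON and 54.6, 55.9, 55.0 and 56.0 in Ch-OE (-0.18, SE 0.0314, adjusted p 0.00128). Scd1 was 203, 203, 206 and 207 FPKM in CON and 183, 177, 177 and 183 in Ch-OE (-0.18, SE 0.0254, adjusted p 0.000281). For these 3 the fold was 0.867 to 0.881, and every Ch-OE library was under every CON library.

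Me1 was the member that rose, from 35.4, 34.5, 34.8 and 36.1 FPKM to 36.6, 41.5, 37.9 and 41.6 (log2 fold change 0.16, SE 0.0424, adjusted p 0.0164). Without Ch-OE replicate 4 it was 0.13 (adjusted p 0.0506). Elovl6 (-0.11, adjusted p 0.0819) and Scd2 (-0.08, adjusted p 0.0986) were not called, nor were Acaca (0.04, 95% interval -0.04 to 0.11) and Acly (0.00, 95% interval -0.06 to 0.07). Of 28 other pathway genes 2 were called higher and 7 lower, where 30.5% of all genes were called either way. Mid1ip1, whose product pairs with acetyl-CoA carboxylase, rose (0.43), and Idh1 (-0.25) and Scap (-0.25), the escort of SREBP, were lower. Genes of differentiating myotubes (Myog, Myh3 and Myh8) summed to 70.3 to 75.7 FPKM in CON and 122 to 130 in Ch-OE. Myog (log2 fold change 0.67) and Myh3 (0.99) were called higher and Myh8 was called lower (-0.28, adjusted p 0.00604), and the part of differentiation in the members' differences was not tested.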

How the data were processed

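RNA-seq levels of the 10 members were taken by symbol from 4 deposited tables (chow GC and SOL, stress GC, AAV GC and C2C12). Per the labels and the methods of the study, the authors isolated RNA in TRIzol, used a NovaSeq, cleaned the reads in fastp and placed them on the genome by HISAT2. The submitters' processing notes name fastp 0.18.0, Bowtie2 2.2.8, HISAT2 2.1.0, StringTie 1.3.1, RSEM and GRCm39. The deposited values are FPKM, named so in the chow and stress tables and taken as FPKM from their values in the AAV and C2C12 tables. The AAV table also holds the authors' log2 fold changes, p-values and FDR, and these were not used. FPKM corrects for gene length and library total, so it keeps differences in the makeup of a library, and Scd1 and Scd2 are paralogs whose reads could be shared.

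Every comparison was fitted on log2(FPKM + 1) with limma 3.58.1 (trend) in R 4.3.3, on genes averaging 0.5 FPKM or more over the libraries of a comparison, with Benjamini-Hochberg adjustment over all genes tested and a threshold of 0.05. Genotype by muscle took the mouse as a random effect. Correlations used deviations from group means and 14400 permutations within groups, or 100000 drawn for the stress libraries, with a smallest possible p of 1e-05 (scipy 1.17.1, two-sided). They were not run in C2C12, where Adipoq was at or near 0. Replicates are separate mice and, in C2C12, biological replicates per the methods of the study, where each arm is 1 stable line, so those p-values measure only the spread within a line. Read totals were recovered for the stress libraries (14473169 to 23460511). The scripts were tested on simulated data with normal noise, where limma recovered 89% of 100 genes changed by 0.75 on the log2 scale in chow GC. The changed genes were drawn from those above the lowest levels. This checks the script and is not the power of the real comparison, where 5 of 12790 genes were called and Mlxipl was not.

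SOL and GC libraries of a number come from the same mouse by their labels (correlation of deviations -0.02 to 0.32 in F/F and 0.02 to 0.06 in ChMKO), where 1 SOL F/F title gives 59 and its column 69. AAV numbers were taken as pairs in the block alternative because every correlation was over 0.1 (0.21 to 0.49), with 4 of 5 highest for their own number. The main fits of AAV and of SOL against GC took no pairs. The named genes are the 10 members, Mlxipl, Adipoq and Plin1, up to 3 called genes per comparison of a list of 33 other pathway genes, and the genes most like a member over the stress libraries. Marker lists covered adipocytes, brown adipocytes, Schwann cells, endothelium, macrophages, muscle fibres, myotubes and liver, and 1 gene of these lists is not reported here. Members and lists were chosen with earlier results of these data known. Alternatives were a pseudocount of 0.1, a mean FPKM of 5 or no filter, rescaling, fat genes as a covariate, voom on recovered reads, the block and leaving out libraries. The library set as a term, means of set removed, Alb as a predictor and AAV correlations without replicate 7 were added after seeing the data.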

Additional observations from a re-analysis of the deposited data

Results flagged for a closer look

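In 6 of 124 groups of member values a single library lay farther from the rest of its group than Dixon's criterion allows, where chance flags about 1 in 20 groups. In AAV-ChREBP replicate 7 Fasn was 12.2 FPKM, with the next library at 4.33, and Acly was 8.70 FPKM, with the next at 4.44. In SOL of F/F mice replicate 58 held 9.46 FPKM of Acly, with the next at 6.42, and 25.8 FPKM of Thrsp, with the next at 13.5. Thrsp was 7.23 FPKM in 1 Norm F/F library, with the next at 5.40. Acacb was 33.4 FPKM in GC of F/F replicate 69, the lowest of its group, with the next at 42.3.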

How the results depend on the processing

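Counts of called members were within 1.5 times their value under the alternatives run, except in SOL against GC of F/F mice. There the count was 4 and ran from 4 to 7 when single libraries were left out, with 7 without SOL replicate 71, the library lowest in fat genes. The count ran from 5 to 7 for SOL against GC in ChMKO, 4 to 5 for HFrD against Norm in ChMKO and 3 to 5 in C2C12. With the replicate block, which pairs libraries by mouse or number, 5 members were called in SOL against GC of F/F mice, as Scd1 was added (adjusted p 0.0218), and it changed no other call. C2C12 numbers did not pair the libraries (correlations of deviations -0.09 to 0.18), and the block gave 4 calls there as well.

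In F/F mice the SOL against GC difference of Scd1 turned from 1.59 to -0.10 with the fat genes as a covariate, and the cause was not tested. The r of Scd1 with Plin1 in AAV GC turned from 0.47 to -0.18 without 2 libraries. Without the 2 farthest libraries r of Scd1 in chow GC moved to 0.57 (Adipoq) and 0.65 (Plin1). No called member changed sign under these alternatives, and 1 call was lost, that of Me1 in C2C12 without Ch-OE replicate 4. Among the values refitted, the sign turned in 16 of 135 with the covariate, 13 of 116 with rescaling, 9 of 54 with the library set as a term, 93 of 1486 with a library left out and 1 of 63 with voom, none of them called. Elovl6 was under the filter in muscle and its differences were not tested there, nor were those of Acacb and Thrsp in C2C12.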

Other observations

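The genes whose deviations were most like those of the other members over the 24 stress libraries, among 9316 genes, were not fat cell genes. They were Fkbp1a for Acly (r = 0.93), Efnb1 for Elovl5 (0.91), Cacng6 for Scd2 (0.90), Notch4 for Acacb (0.90), Rnf11 for Me1 (0.81), Ppp1r12b for Acaca (0.78), Ywhae for Fasn (0.73) and Scamp2 for Thrsp (0.71). These are descriptions over libraries that share the split into 2 sets. With the means of set removed as well, r was 0.86, 0.74, 0.84, 0.90, 0.83, 0.80, 0.78 and 0.67 in the same order. With Alb, a liver gene, as a further predictor, added after seeing the data, 0 of 36 relations of the members were called (permutation test, with 1 at an unadjusted p under 0.05).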
